A study of Sus scrofa with 20 samples.

Results

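The trefoil and secretory gland genes are TFF1, TFF2, TFF3, OLFM4, TCN1, LTF, PIGR and AGR2. They were picked by gene name, and all 8 have a row among the 25764 genes of the deposited table. OLFM4 and TCN1 were picked because they are among the genes that differ most between porcine biliary tree stem cells (pBTSCs) and liver cells. The levels of the 8 genes in pBTSCs and in liver are therefore given as a description, without a test.

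RNA was sequenced from poly(A) libraries of 5 pBTSC preparations and 15 preparations of sorted pig liver cells. The pBTSCs came from the gallbladder and extrahepatic biliary tree of newborn piglets, were selected as CD45- and EpCAM+ cells and were held in a serum-free medium for several hours, where organoids also take in early mesenchymal cells. Of the 5 piglets, 3 carried an H2B-GFP transgene, which is histone H2B joined to green fluorescent protein in the ACTB locus and is active in all tissues, and 2 were wild-type. H2B-GFP piglet 3 was taken at 2 days of age and the other piglets at 1 day. The line is not in the deposited labels and was read from a supplementary table of the study through the storage number that titles each sample. The H2B-GFP libraries are S2, S7 and S11 (piglets 1, 2 and 3) and the wild-type libraries are S15 and S20 (piglets 1 and 2), so line, storage number and cell yield cannot be told apart. By the study's own records the amount of RNA and, where it is given, its integrity were also higher in the wild-type preparations. The liver groups were CD45-/EpCAM+ (4 libraries), CD45-/EpCAM- (2 libraries), CD45+ (5 libraries), CD31+ (2 libraries) and CD146+ (2 libraries), and the donor, line and age behind each liver library are not stated.

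These genes belong to the fluid and mucus that glands make. Trefoil factors are small secreted peptides that go out with mucins and help a damaged lining to close. OLFM4 is a secreted glycoprotein of crypt progenitor cells in the gut and of neutrophil granules. TCN1 makes haptocorrin, which binds vitamin B12 in saliva, gastric juice and bile, and it too is stored in neutrophil granules. LTF makes lactoferrin, an iron-binding antimicrobial protein of milk, mucosal fluids and the same granules. PIGR carries dimeric IgA and IgM across epithelium into bile and mucus. AGR2 is a protein disulfide isomerase of the endoplasmic reticulum that mucus-making cells need. In the biliary tree such products come from the lining and from peribiliary glands, where the stem cells of the study reside.

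Values are normalized counts as deposited. Library depth was read from the value that 1 read takes. It was 21280400 to 77849600 reads in 17 libraries, and only 1566800 in wild-type piglet 1, 801396 in the CD45-/EpCAM+ library S13 and 454534 in the CD146+ library S22. A gene was treated as below the floor at 3 reads or fewer, which is 0.680 to 4.27 normalized counts in the 17 deep libraries and 37.7, 77.1 and 156 in the 3 shallow ones. Floors cover counting error only. The sort labels were checked against their antigens. EPCAM lay between 1205 and 1779 in CD45-/EpCAM+ and between 491 and 1090 in CD45-/EpCAM- liver cells, while PTPRC, which encodes CD45, ranged from 424 to 2687 in CD45+ and from 450 to 3027 in CD45-/EpCAM+ liver cells. EPCAM was also 1175 to 2232 in CD45+ cells. PECAM1, which encodes CD31, was 20102 to 25291 in CD31+ cells, up to 26682 in CD45+ cells and 28048 to 36576 in pBTSCs. MCAM, which encodes CD146, was 4615 to 5226 in CD146+ cells and up to 7656 in pBTSCs, so that PTPRC, PECAM1 and MCAM did not set the libraries of their own label apart. All 15 liver libraries held hepatocyte genes, whose 8 listed members summed to 955685 or more, against 26258 to 72634 in pBTSCs. The 9 listed mesenchyme genes summed to 417799 or more in each pBTSC library and to at most 180056 in liver, and the part of these cells in the levels below was not tested. In such bulk libraries fewer cells of a type and less RNA per cell cannot be told apart.

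OLFM4 was high in pBTSCs and near the floor in liver. Its normalized counts were 7201, 3674 and 8254 in H2B-GFP piglets 1, 2 and 3 and 880 and 434 in wild-type piglets 1 and 2. In liver, OLFM4 was at or under 3 reads in 10 of 15 libraries, and the highest value was 10.2 in the CD45+ library S12. No pBTSC library overlapped with liver, and the lowest of them was 42.4 times that highest liver value as listed. The shallow libraries S13 and S22, where OLFM4 is listed at 0, could hide values up to 77.1 and 156, which are still below 434. The mean of OLFM4 in pBTSCs was 4089 ± 3566 (SD, n = 5), with a spread of 19-fold between the highest and the lowest piglet. On the log2(normalized count + 1) scale, OLFM4 differed by 10.75 between pBTSCs and CD45-/EpCAM+ liver cells and by 9.65 between pBTSCs and CD45-/EpCAM- liver cells. With liver at the floor the size depends on the pseudocount, and the first of these was 7.86 with a pseudocount of 10 and 12.89 with 0.1.

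**Figure D1:**
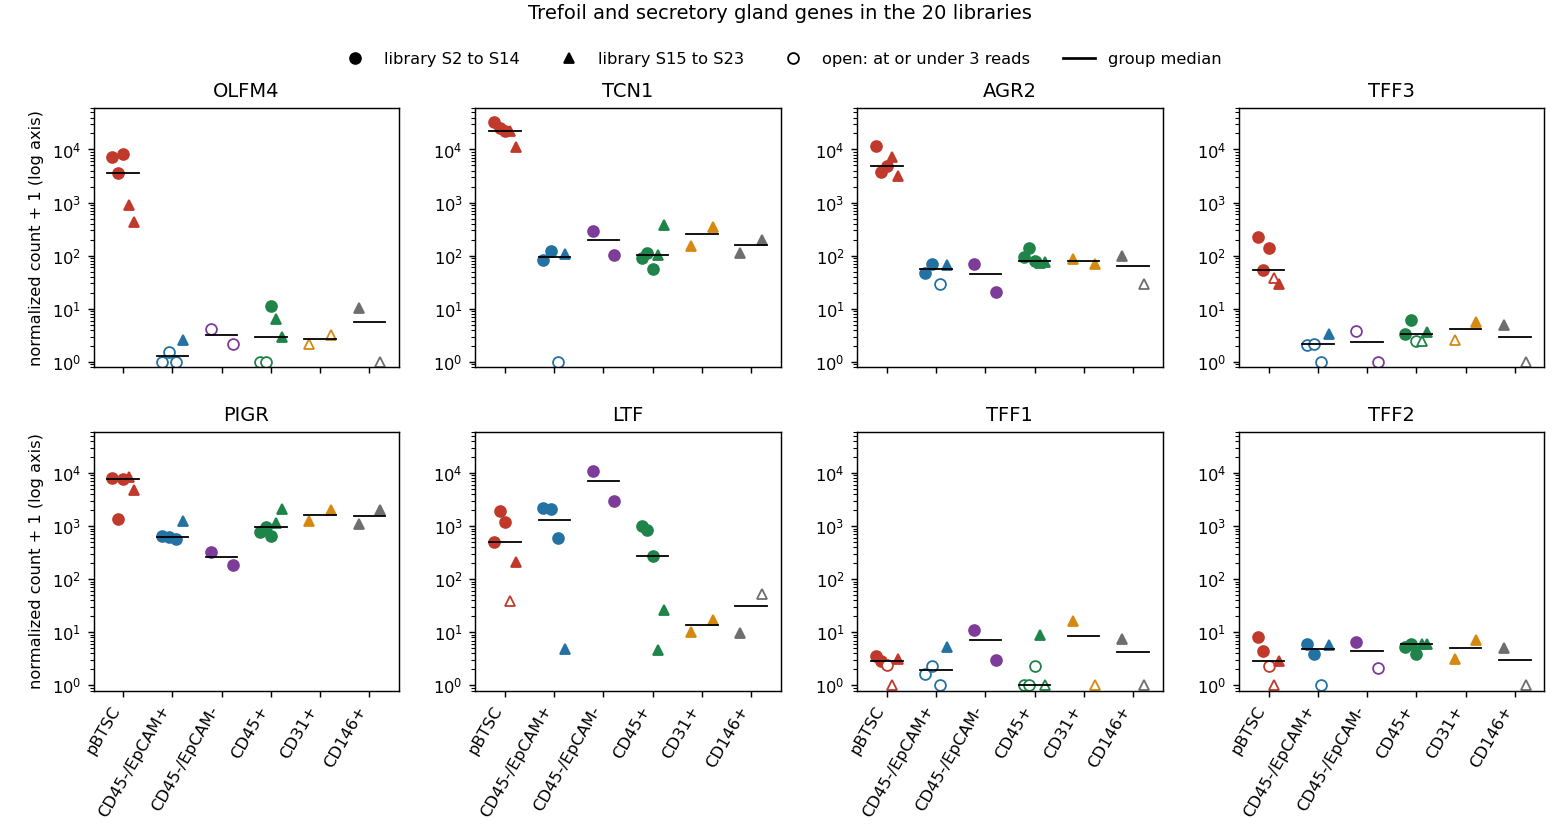
Normalized count + 1 (log axis) of the 8 genes in each library of the 6 groups, with circles for libraries S2 to S14, triangles for S15 to S23, open symbols for values at or under 3 reads and a line at each group median. OLFM4, TCN1, AGR2 and TFF3 are higher in all 5 pBTSC libraries than in every liver library as listed, whereas LTF, TFF1 and TFF2 overlap with liver.

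TCN1 was high in all 5 pBTSC preparations and varied less among them than OLFM4. It reached 32545, 25476 and 22245 in H2B-GFP piglets 1, 2 and 3 and 22484 and 11321 in wild-type piglets 1 and 2. The mean was 22814 ± 7654 (SD, n = 5), with 2.87-fold between the extremes.

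In liver, TCN1 was clearly present but far lower. Its values in CD45-/EpCAM+ libraries S4, S9, S13 and S19 were 83.2, 122, 0 and 106, where the 0 falls in a shallow library. In CD45-/EpCAM- libraries S5 and S14 it was 295 and 103, and in the 5 CD45+ libraries it ran from 56.2 to 372 with a median of 104. CD31+ libraries S16 and S21 had 154 and 349, and CD146+ libraries S17 and S22 had 112 and 198. The lowest pBTSC library was 30.4 times the highest liver library. The difference from CD45-/EpCAM+ liver cells was 9.38 on the log2 scale over all libraries and 7.69 over the deep ones, since S13 holds a 0.

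AGR2 was also separated from liver in every library. It was 11395, 3779 and 4883 in H2B-GFP piglets 1, 2 and 3 and 7259 and 3179 in wild-type piglets 1 and 2, with a mean of 6099 ± 3346 (SD, n = 5). The 15 liver libraries ran from 19.9 to 138 with a median of 69.4, and 2 of them, both shallow, were at or under 3 reads. The lowest pBTSC library was 23.1 times the highest liver library, which was the CD45+ library S8. The log2 difference was 6.77 from CD45-/EpCAM+ and 7.18 from CD45-/EpCAM- liver cells. Across the liver fractions the group means of AGR2 lay between 43.6 ± 33.4 (SD, n = 2) in CD45-/EpCAM- and 91.3 ± 27.5 (SD, n = 5) in CD45+ cells.

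Of the 3 trefoil genes, TFF3 had the highest level in pBTSCs, with a mean of 95.4 against 1.62 for TFF1 and 2.76 for TFF2. TFF3 was at or under 3 reads in 1 of 5 pBTSC libraries, and TFF1 and TFF2 were each so in 2. TFF3 was 221, 52.2 and 137 in H2B-GFP piglets 1, 2 and 3, 37.7 in wild-type piglet 1, which is 3 reads there, and 28.8 in wild-type piglet 2. In liver it ranged from 0 to 5.11, and 9 of 15 libraries were at or under 3 reads. The groups did not overlap as listed, but the shallow libraries S13 and S22, where TFF3 is listed at 0, could hide values up to 77.1 and 156. The log2 difference from CD45-/EpCAM+ liver cells was 5.18, or 2.90 with a pseudocount of 10.

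TFF1 and TFF2 were low in all groups. TFF1, the gastric surface trefoil, was 2.63, 1.85 and 1.48 in H2B-GFP piglets 1, 2 and 3, 0 in wild-type piglet 1 and 2.14 in wild-type piglet 2. Its highest value was 15.1 in the CD31+ library S16, and 9 of 15 liver libraries were at or under 3 reads. TFF2, the trefoil of gastric mucous neck cells and Brunner's glands, was 7.24, 3.36, 1.28, 0 and 1.92 in the same order of piglets and 0 to 6.08 in liver. Neither gene was separated between pBTSCs and any liver group. In the RefSeq table of Sscrofa11.1 the 3 trefoil genes are neighbours on 1 chromosome, in the order TFF3, TFF2 and TFF1.

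PIGR was high in pBTSCs and also present in every liver library. It was 8158, 1350 and 7682 in H2B-GFP piglets 1, 2 and 3 and 8509 and 4870 in wild-type piglets 1 and 2, with a mean of 6113 ± 3025 (SD, n = 5). The liver means were 775 ± 329 (SD, n = 4) in CD45-/EpCAM+, 258 ± 101 (SD, n = 2) in CD45-/EpCAM-, 1126 ± 569 (SD, n = 5) in CD45+, 1624 ± 535 (SD, n = 2) in CD31+ and 1546 ± 669 (SD, n = 2) in CD146+ cells. H2B-GFP piglet 2 fell inside the range of the CD45+, CD31+ and CD146+ libraries, so that pBTSCs lay above CD45-/EpCAM+ and CD45-/EpCAM- liver cells only, as did 19.2% and 33.6% of all genes. The log2 differences from those were 2.80 and 4.36.

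LTF did not separate pBTSCs from liver. It was 512, 1899 and 1207 in H2B-GFP piglets 1, 2 and 3, 37.7 in wild-type piglet 1, which is 3 reads, and 214 in wild-type piglet 2. CD45-/EpCAM+ libraries S4, S9, S13 and S19 had 2239, 2068, 591 and 3.76, and CD45-/EpCAM- libraries S5 and S14 had 11120 and 2993. CD45+ libraries S3, S8, S12, S18 and S23 had 1021, 842, 269, 3.60 and 25.7, while the CD31+ and CD146+ libraries lay between 8.68 and 52.2. pBTSCs were below both CD45-/EpCAM- libraries, as were 30.0% of all genes, and overlapped with CD45-/EpCAM+, CD45+ and CD146+ cells. They were above both CD31+ libraries, S16 and S21, as were 27.4% of all genes, although the lowest pBTSC value is at the floor. The overlap with CD146+ cells came through the shallow library S22, at or under 3 reads. The log2 difference between pBTSCs and CD45-/EpCAM+ liver cells was 0.23 over all libraries, -0.41 within S2 to S14 and 4.26 within S15 to S23, so its direction depends on the libraries set side by side.

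Across the 15576 genes that reached 10 in 2 or more libraries, the share with every pBTSC library above every liver library was 11.9%. TFF2 was not among these genes, and OLFM4 and TFF3 passed through their pBTSC values. Together the 8 genes took 0.103% to 0.340% of the total in pBTSC libraries and 0.00517% to 0.0391% in liver libraries. Library range did not turn the direction for OLFM4, TCN1, AGR2, TFF3 or PIGR. Within S2 to S14 the log2 differences from CD45-/EpCAM+ cells were 12.35, 10.24, 7.02, 6.15 and 2.85 in that order, and within S15 to S23, where liver has 1 such library, they were 7.93, 7.23, 6.18, 3.34 and 2.35.

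**Figure D2:**
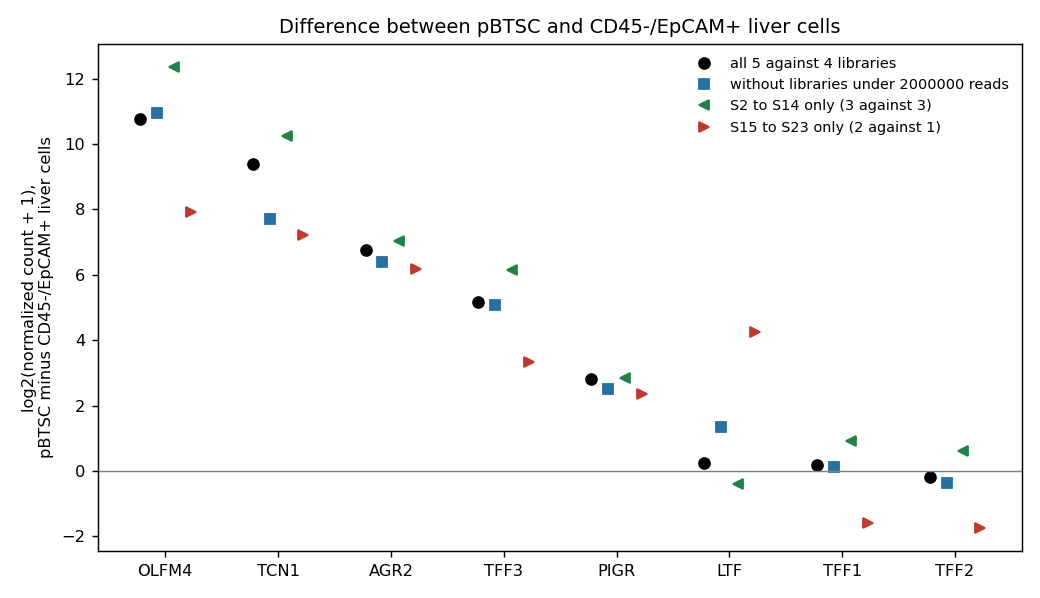
Difference between pBTSCs and CD45-/EpCAM+ liver cells for each gene on the log2(normalized count + 1) scale, over all libraries (black circles), without the shallow libraries (squares) and within S2 to S14 or S15 to S23 (triangles). For OLFM4 the 4 values run from 7.93 to 12.35, and for LTF, TFF1 and TFF2 they lie on both sides of 0.

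The piglet lines were compared within pBTSCs. The rule for the genes names the gap between pBTSCs and liver, and the genes were chosen with earlier results of these data known. OLFM4 was higher in the H2B-GFP than in the wild-type piglets, at a mean of 6377 ± 2398 (SD, n = 3) against 657 ± 315 (SD, n = 2). limma, fitted to the 5 pBTSC libraries, gave a log2 difference of 3.28 with a standard error of 0.42 and an adjusted p of 0.0233. OLFM4 was 1 of 6 members tested that was called, beside 1.77% of the 14912 genes tested. As shares of the same genes, 0.402% were called above and 1.37% below the wild-type level. The 2 lowest libraries, from the wild-type piglets, lay below all 3 H2B-GFP libraries. The call was lost without S11, S15 or S20, with log2 differences of 3.05, 3.79 and 2.77, and S15 is the shallow library. Without S15 or S20 the lone wild-type library is assumed to vary like the H2B-GFP ones. Without S20 the calls over all genes also turned, from 60 higher and 204 lower to 320 higher and 130 lower.

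LTF and TFF3 also had no overlap between the lines, with H2B-GFP above, as did 18% of all genes. Both genes were at 37.7 in wild-type piglet 1, which is at the floor of that shallow library. The lowest H2B-GFP value of TFF3 was 52.2. The log2 difference was 3.53 for LTF (standard error 0.80, limma adjusted p = 0.101) and 1.79 for TFF3 (standard error 0.60, limma adjusted p = 0.202), and neither passed. TCN1 had a difference of 0.73 (adjusted p = 0.285 from limma), AGR2 of 0.31 (adjusted p = 0.787 from limma) and PIGR of -0.55 (adjusted p = 0.733 from limma). TFF1 and TFF2 were too low to be tested. Of 8 hepatocyte genes 6 were lower in the H2B-GFP piglets, ALB by a log2 difference of -6.14 (adjusted p = 8.3e-05 from limma), and 1 of the 6, CYP2E1, reached the minimum level only through the wild-type libraries. The 9 mesenchyme genes summed to 417799 to 993690 in H2B-GFP and 1673180 to 1679890 in wild-type piglets, with 0 called and a median log2 difference of -1.56. The part of these cells in the OLFM4 difference was not tested. The summed neutrophil genes were 1685 to 10334 in H2B-GFP and 1017 to 2297 in wild-type piglets, with 0 of 13 called and a median log2 difference of 2.18 against 0.01 over all genes.

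JCHAIN, the joining chain of the dimeric IgA that PIGR transports, went with the line where PIGR did not. It was 116, 25.5 and 59.3 in H2B-GFP piglets 1, 2 and 3 and 2715 and 8213 in wild-type piglets 1 and 2. JCHAIN was lower in the H2B-GFP piglets (log2 difference -6.37, standard error 0.69, adjusted p = 0.0147 from limma). TF, the serum transferrin to which LTF is related and 1 of the hepatocyte genes counted above, was also lower (log2 difference -2.78, adjusted p = 0.0152 from limma).

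Within liver the clearest pattern followed storage number. LTF was 269 to 11120 in the 8 libraries S3 to S14 and 3.60 to 52.2 in the 7 libraries S16 to S23, without overlap. The storage number is only a title, which does not state a batch or a donor, and the split was taken with earlier results of these data known. With the fraction as a covariate, limma gave LTF a log2 difference of 6.72 with a standard error of 0.82 and an adjusted p of 8.5e-04. PIGR differed the other way, at 187 to 944 against 1073 to 2083, with a log2 difference of -1.01, a standard error of 0.27 and an adjusted p of 0.0409 from limma. These were 2 of 5 members tested, beside 3.78% of the 14910 genes tested, with 1.51% higher and 2.27% lower in S3 to S14. Of all genes 7.97% lay above and 7.06% below without overlap. The CD45-/EpCAM- libraries are all in S3 to S14, and the CD31+ and CD146+ libraries all in S16 to S23. The fitted differences thus rest on CD45+ and CD45-/EpCAM+ cells, and S19 alone stands for the latter in S16 to S23. The ranges above mix the fractions, and the highest LTF, 11120, and the lowest PIGR, 187, were both in CD45-/EpCAM- libraries. The PIGR call was lost under both rescalings, array weights and without the shallow libraries, and on leaving out any 1 liver library other than S5, S14, S17 or S22, with log2 differences of -1.23 to -0.81.

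TCN1, AGR2 and TFF1 did not pass between the ranges. Their log2 differences were -1.65 for TCN1 (adjusted p = 0.438 from limma), 0.08 for AGR2 (adjusted p = 0.947 from limma) and -1.42 for TFF1 (adjusted p = 0.470 from limma). TFF1 reached the minimum level only through S5, at 10.2, and S16, at 15.1, and was at or under 3 reads in 9 of 15 liver libraries. Its difference could thus not be judged. OLFM4, TFF2 and TFF3 were too low in liver to be tested. The difference between ranges for LTF was not shown to vary between CD45+ and CD45-/EpCAM+ cells (interaction of -2.40, adjusted p = 1 from limma), a comparison that has 1 CD45-/EpCAM+ library in S16 to S23.

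**Figure D3:**
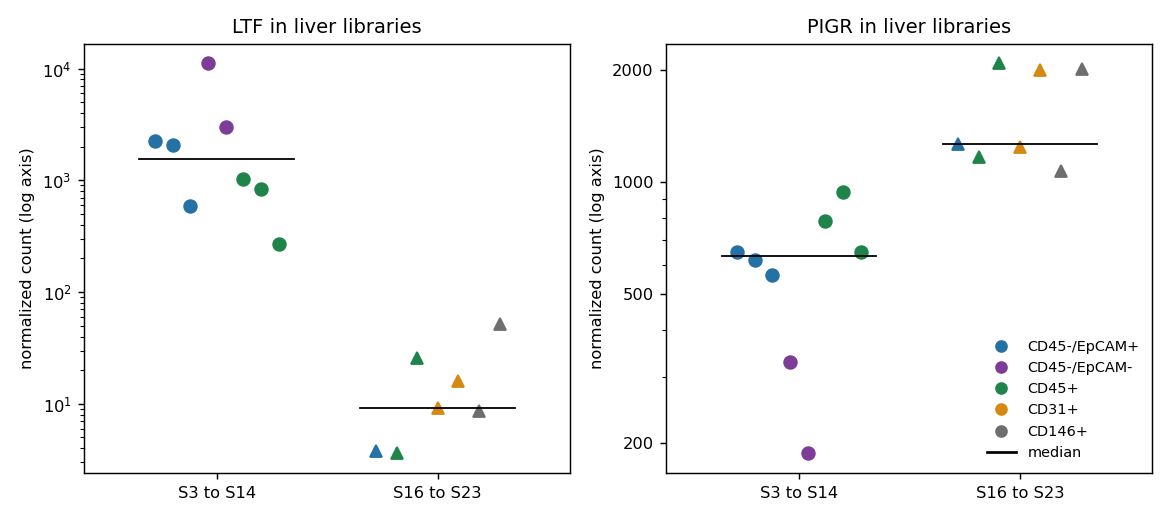
LTF and PIGR in the 15 liver libraries (normalized count, log axis) by storage number, with a point for each library coloured by fraction and a line at the median. LTF is 269 to 11120 in S3 to S14 against 3.60 to 52.2 in S16 to S23, and PIGR is 187 to 944 against 1073 to 2083.

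The neutrophil genes moved with LTF between the ranges. Of 14 listed neutrophil and granule genes 10 were higher in S3 to S14, with a median log2 difference of 5.39 over the 14, against -0.03 over all genes. Of the 10, 6 (MPO, ELANE, PRTN3, AZU1, CD177 and S100A12) reached the minimum level only through S3 to S14, so the filter itself favoured a higher level there. The other 4 were PGLYRP1, S100A8, S100A9 and CSF3R. PGLYRP1, a granule protein that binds bacterial cell walls, was 236 to 5205 in S3 to S14 and 0 to 15.3 in S16 to S23, a log2 difference of 5.94 (adjusted p = 5.7e-04 from limma). S100A8, a subunit of calprotectin, was 359 to 16666 against 60.8 to 105, a log2 difference of 3.34 (adjusted p = 0.0148 from limma). The summed list was 2541 to 88942 in S3 to S14 and 607 to 911 in S16 to S23, and its part in the LTF difference was not tested.

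By likeness of pattern over the 17 deep libraries, LTF was nearest to S100A12 (Pearson's r of 0.985), followed by MMP8 (0.968) and NPG1 (0.961), among 13179 genes. LTF per 100 counts of S100A12 lay between 49.0 and 121 in the 8 liver libraries S3 to S14. In pBTSCs it was 69.2 and 82.1 in H2B-GFP piglets 1 and 2, 99.6 and 60.6 in wild-type piglets 1 and 2, and 444 in H2B-GFP piglet 3. The ratio of wild-type piglet 1 rests on 37.7 for LTF and 37.8 for S100A12, where 3 reads are 37.7. H2B-GFP piglet 3 thus stood apart from the other pBTSC and liver libraries of that range, with an LTF of 1207 beside an S100A12 of 272.

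**Figure D4:**
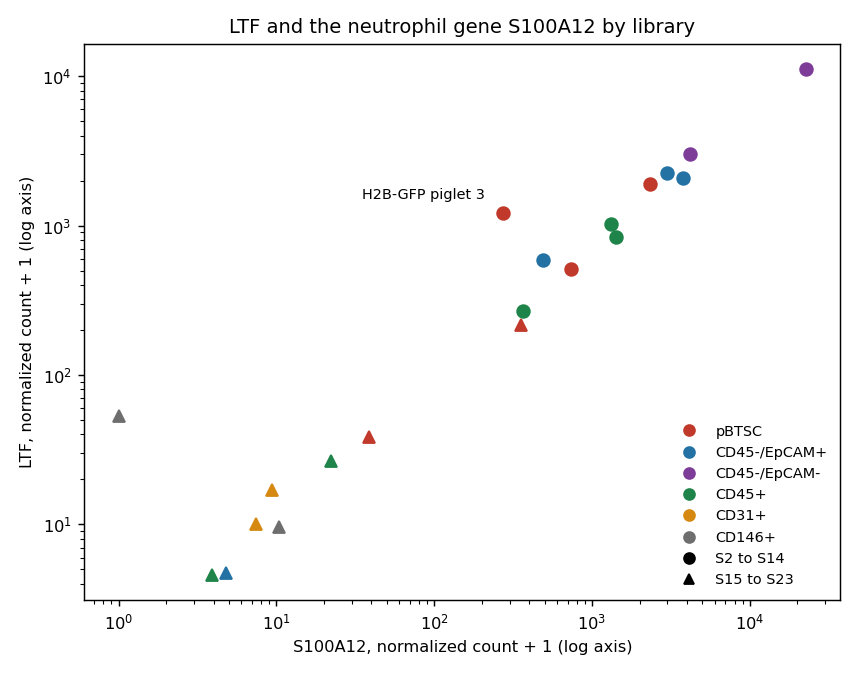
LTF against the neutrophil gene S100A12 (normalized count + 1 on log axes) in the 20 libraries, coloured by group, with circles for S2 to S14 and triangles for S15 to S23. The libraries lie along 1 band, apart from H2B-GFP piglet 3, at 1207 for LTF and 272 for S100A12, and the shallow CD146+ library S22, where S100A12 is listed at 0.

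TCN1 and OLFM4, which neutrophil granules also hold, stood in no fixed ratio to S100A12. TCN1 per 100 counts of S100A12 was 1101 to 8188 in the 4 deep pBTSC libraries and at most 15.5 in liver libraries S3 to S14. In the 6 deep liver libraries of S16 to S23, where S100A12 was 21.3 or less, it was 1191 to 4148, within the range of the pBTSC libraries. In the CD45-/EpCAM- library S5, where S100A12 was 22713, OLFM4 was 3.12 and TCN1 was 295. Over the 13 deep liver libraries Pearson's r of LTF was -0.13 with TCN1 and -0.78 with PIGR, where the libraries share the split by storage number.

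The 17 deep libraries hold 4 of pBTSCs, so the likeness of the other members also takes in the gap between pBTSCs and liver. OLFM4 was nearest to LRRTM1 (0.980) and STMN2 (0.974), TCN1 to TRAF1 (0.991), KLHL1 (0.971) and VIP (0.968), and AGR2 to PTPRN2 (0.980), CDH10 (0.980) and SLC5A7 (0.979). TFF3 was nearest to AGR2 (0.976), PRPH (0.974) and SLC5A7 (0.968), and PIGR to WDR6 (0.934), KL (0.926) and SCN2A (0.926). STMN2, PRPH, VIP and SLC5A7 are best known from neurons. For TFF1 the nearest was CHD1 (0.802) and for TFF2 LSR (0.793), both with values close to the floor. Within the 13 deep liver libraries TFF3 and AGR2 had an r of 0.814, whereas OLFM4 and TCN1, at 0.945 over all 17, had 0.00.

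Among the other liver fractions no member was called. Between CD45-/EpCAM+ and CD45-/EpCAM- liver cells limma called 2.80% of 15576 genes. OLFM4 and TFF3 reached the minimum level only through pBTSCs and are near the floor in liver, so they could not be judged here. TFF1 reached the minimum level only through the CD45-/EpCAM- library S5, at 10.2, and the CD31+ library S16, at 15.1. It was at or under 3 reads in 3 of 4 CD45-/EpCAM+ and 4 of 5 CD45+ libraries, so it could not be judged either. Of the other members tested (TCN1, LTF, PIGR and AGR2) 0 were called and 1, PIGR, had an unadjusted p under 0.05, as had 3499 of all genes. LTF was higher in both CD45-/EpCAM- libraries than in all CD45-/EpCAM+ libraries, at a log2 difference of -4.09 for CD45-/EpCAM+ minus CD45-/EpCAM- (adjusted p = 0.314 from limma), and 9.65% of all genes did the same. PIGR, at 329 and 187, lay below all CD45-/EpCAM+ libraries (log2 difference 1.56, adjusted p = 0.144 from limma), as did 13.9% of all genes. This fit has no term for the storage range, and both CD45-/EpCAM- libraries are in S3 to S14. In the CD45-/EpCAM+ library S19, of S16 to S23, LTF was 3.76 and PIGR 1265. In S4, S9 and S13 they were 591 to 2239 and 563 to 650. With the range as a term in limma, 2 of 7 members tested had an unadjusted p under 0.05. Between CD45+ and CD45-/EpCAM+ cells limma called 0% of all genes. There 214 genes, and 0 of TCN1, LTF, PIGR and AGR2, had an unadjusted p under 0.05. The libraries fall into 4 pairs of neighbouring storage numbers (S3 and S4, S8 and S9, S12 and S13, S18 and S19), though the labels do not say that neighbours share an animal. LTF was lower in the CD45+ library of all 4 pairs, at 1021 against 2239, 842 against 2068, 269 against 591 and 3.60 against 3.76. The last LTF pair was nearly equal, and the 591 is from the shallow library S13. AGR2 was higher in all 4, at 94.7 against 46.0, 138 against 69.1, 78.7 against 27.9 and 70.7 against 65.4. The AGR2 value of S13 is at or under 3 reads. No other member had the same direction in all 4 pairs. The share of all genes that did was not counted, so the 4 pairs are a description only. Between CD31+ or CD146+ cells and the other liver cells of S16 to S23, limma called 0% of 14324 genes, with 6 genes and 0 of 4 members at an unadjusted p under 0.05. With array weights these became 2005 genes and 2 of 4 members. Between CD45+ and CD45-/EpCAM+ cells array weights gave 1288 genes, and both fits again called 0 genes. Because these counts depend so much on the weights, 0 calls do not show that the fractions are alike.

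Partners of the members were compared between pBTSCs and CD45-/EpCAM+ liver cells, where limma called 14.8% of genes higher and 10.3% lower in pBTSCs. Of 16 partner genes tested 4 were higher and 2 lower, with a median log2 difference of 0.48 against 0.08 over all genes. CUBN, part of the receptor that takes up vitamin B12 with intrinsic factor, was higher by 2.54 (adjusted p = 0.0102 from limma). The count of 4 includes AMN, the partner of CUBN, which was 4.62 to 26.1 in pBTSCs and 0 to 2.93 in liver. AMN reached the minimum level only through pBTSCs, so the filter itself favoured a higher level there. JCHAIN was higher by 4.26 (adjusted p = 0.0289 from limma) and OLFML2B, a relative of OLFM4, by 2.84 (adjusted p = 3.5e-05 from limma). The JCHAIN difference came through the wild-type piglets, at 2715 and 8213. The H2B-GFP piglets, at 25.5 to 116, overlapped with the CD45-/EpCAM+ libraries, at 0 to 69.6. TF was lower by a log2 difference of -6.93, and TXNDC12, a relative of AGR2, by -1.03.

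The secretory programme had 6 of 14 genes higher and 2 lower in pBTSCs, with a median log2 difference of 1.32. ERN2, the stress sensor of mucus-making epithelium, was higher by 5.47 (adjusted p = 1.2e-04 from limma), and SPDEF, a transcription factor of goblet cells, by 3.33 (adjusted p = 0.00800 from limma). FOXA3, a transcription factor of hepatocytes and goblet cells, was lower by a log2 difference of -4.73 (adjusted p = 2.7e-04 from limma). PGC, pepsinogen C, is the other gene counted as lower, at 0 to 34.8 in pBTSCs and 13.2 to 538 in CD45-/EpCAM+ cells, and reached the minimum level only through liver. GALNT12, CREB3L1, WFDC2 and LYZ were the other genes that were higher. BPIFB1 was at 0 in all 5 pBTSC libraries.

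Marker lists of other cells were counted in the same comparison, where 14.8% of all genes were called higher and 10.3% lower in pBTSCs. Of 14 neutrophil genes 0 were called, with a median log2 difference of -1.31, and the summed list was 1017 to 10334 in pBTSCs and 621 to 19321 in CD45-/EpCAM+ cells. Gastric genes had 0 higher and 1 lower (PGC) of 4, intestinal genes 0 called of 4, acinar genes 1 higher (CEL, which reached the minimum level only through pBTSCs) of 2, and plasma cell genes 2 higher (JCHAIN and MZB1) of 6. The JCHAIN call came through the wild-type piglets. Biliary epithelium had 1 higher (AQP1) and 2 lower (CLDN4 and CFTR) of 8. All 8 hepatocyte genes were lower and 8 of 9 mesenchyme genes were higher.

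Against CD45-/EpCAM- liver cells, where limma called 20% of genes higher and 16.6% lower, 3 partners were higher and 3 lower of 16, and 5 secretory genes were higher and 2 lower of 14. ERN2 was again higher, by 7.35 (adjusted p = 5.2e-05 from limma). The partner counts include AMN, through pBTSCs alone, and GKN2, through liver alone. Here 8 of 14 neutrophil genes were lower in pBTSCs, beside the lower values of LTF, and 1 of the 8, ELANE, reached the minimum level only through liver. Both CD45-/EpCAM- libraries are in S3 to S14, where the neutrophil genes were higher in liver, whereas the pBTSC libraries span both ranges. The summed list was 88942 in S5 and 22799 in S14. Both comparisons share the pBTSC libraries.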

How the data were processed

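Normalized counts of 25764 genes were deposited by the authors, a signal that is never negative, from poly(A) libraries (RNeasy, TruSeq Stranded mRNA). The submitters' processing notes name STAR, Salmon and DESeq2, and the build is not given in the sources used here. No count test was run, since low values came within 0.05 reads of whole ones in 84.3% of cases at best. The deposited signal was tested as log2(normalized count + 1) by limma 3.58.1 in R 4.3.3 (lmFit and eBayes, trend on, p-values adjusted by Benjamini-Hochberg over all genes that reached 10 in 2 or more libraries) and called at an adjusted p under 0.05 and an absolute log2 difference above 1. Other steps used Python 3.11.15, numpy 2.4.6, pandas 2.3.3 and matplotlib 3.10.9. The fits were tested on simulated data with independent libraries and the same spread for all genes. That setting does not cover libraries that deviate together, as some do here.

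Groups came from the deposited labels and the piglet line from the study's supplement. Nothing says that liver libraries of a group came from separate animals, so p-values measure only the spread between libraries. Neighbouring CD45+ and CD45-/EpCAM+ libraries deviated together from their group means (r of 0.424 to 0.787 over 4 pairs, which also share the storage range). The closest replicates differed by 3.28 times the counting noise. The members and lists were chosen with earlier results of these data known. Named genes are the members, at most 4 called genes per list with the largest difference between pBTSCs and CD45-/EpCAM+ liver cells, list genes at 0 in pBTSCs, and the 3 genes most like each member, 1 of which is not reported here; further names were chosen after their values were seen. Of 127 list genes 101 had a row. Alternatives were other pseudocounts, filters, scalings, weights, fits and libraries left out.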

Additional observations from a re-analysis of the deposited data

Results flagged for a closer look

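Of 24 sets of 4 or 5 libraries of 1 group tested gene by gene, 3 held a library far from the others. Chance flags about 1 in 20 groups where values are normally distributed, which was not checked here. The groups also mix the storage ranges. TCN1 in the CD45+ library S23 was 372, with the other 4 libraries at 114 or less. PIGR in the CD45-/EpCAM+ library S19 was 1265, with the other 3 at 650 or less, and S19 is the only library of that group in S16 to S23. TFF1 in the CD45+ library S18 was 8.02, with the other 4 at 1.29 or less.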

How the results depend on the processing

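The labels give no replicate numbers and no donor of the liver libraries. With the 4 pairs of neighbouring CD45+ and CD45-/EpCAM+ libraries as a block, a fit chosen after seeing the data, limma called 0 genes as before, with 921 in place of 214 at an unadjusted p under 0.05. Between the lines, the members called went from 1 to 0 and all genes called from 264 to 24 without the shallow libraries, with 0 to 1 and 24 to 450 on leaving out each library (24 without S15, 129 without S7, 135 without S2 and 450 without S20). Between CD45-/EpCAM+ and CD45-/EpCAM- cells, all genes called went from 436 to 718 rescaled to the same total, 879 without the shallow libraries, 39 with array weights and 0 with only those groups in the fit, with 0 to 1478 on leaving out each library (0 without S5, 25 without S19, 675 without S13 and 1478 without S14). Between the liver ranges, the members called went from 2 to 1 under both rescalings, array weights and without the shallow libraries, with 1 to 2 on leaving out each library. All genes called there went from 564 to 1101 without the shallow libraries and 1927 with array weights, with 88 to 752 on leaving out each library (88 without S19, 136 without S18, 288 without S23 and 322 without S8). LTF kept its direction and its call in all 22 alternatives, from 5.54 to 7.63. Against CD45-/EpCAM- cells, list genes called were 45, with 29 to 46, and all genes 5698, with 3390 to 5862, on leaving out each library, the lowest of both without S5. Rescaling to the same total moved the median of all genes from 0.08 to 0.39 against CD45-/EpCAM+ and from 0.04 to 0.51 against CD45-/EpCAM- cells, and the calls from 2302 higher and 1603 lower to 3275 and 1239, and from 3114 and 2584 to 4624 and 1509. It moved the calls between the 2 EpCAM fractions from 316 and 120 to 611 and 107. No call of a member reversed. Of the differences given without a test, that of LTF between pBTSCs and CD45-/EpCAM+ cells, 0.23, changed sign, to -0.08 with a pseudocount of 10, -0.34 without S7 and -1.82 without S19, and those of TFF1 and TFF2 changed sign too. Depth limits OLFM4, TFF1, TFF2 and TFF3 in liver.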
